A study of Homo sapiens with 6 samples.

Results

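The genes described here are 10 targets of the transcription factor NRF2 and components of the defence against ferroptosis: NQO1, HMOX1, GCLC, GCLM, TXNRD1, SRXN1, GSR, GPX4, FTL and FTH1. They were taken by symbol from a table of 19672 genes measured in SW620, an established human colorectal cancer cell line, and all 10 were among the 13299 genes that passed the low-count filter. The study silenced DKC1, the gene of dyskerin, an enzyme that modifies RNA and also belongs to the telomerase complex. The lines C6 and C3 carry a short hairpin RNA against DKC1 and the control line carries a non-targeting scrambled one, in each case cloned in a lentiviral pLV vector and kept under 1 µg/mL puromycin, with no drug treatment besides. There were 2 libraries each of C6, C3 and scramble, so 4 knockdown and 2 control libraries, which share 1 batch date in the labels. The design names a pair of hairpins, but which of them C6 or C3 carries, and whether each line is a single clone, is stated nowhere in these sources. One C3 library, replicate 1, has a genotype tag that reads control and was grouped by its title.

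NRF2 is kept low by KEAP1, which presents it for degradation until oxidants or electrophiles modify KEAP1. Stabilised NRF2 then binds antioxidant response elements together with a small MAF protein, a place that the repressor BACH1 can occupy instead, and raises genes of quinone detoxification, glutathione, thioredoxin and iron storage. Ferroptosis is a form of cell death driven by iron-dependent peroxidation of membrane lipids, which the selenoprotein GPX4 counters with glutathione, and ferritin limits it by holding iron in a form that does not react.

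Total counts were between 26077966 and 31021000 per library, at which 3 counts correspond to at most 0.115 CPM (counts scaled to a common library size, here with TMM). This floor covers counting error only. DKC1 itself stood at 70.3 and 67.1 CPM in C6 and at 144 and 149 CPM in C3, against 319.7 and 315 CPM in scramble, so the C3 library tagged control lay beside the other C3 library. Within a group the libraries differed beyond counting noise, the chi-square over its degrees of freedom lying between 6.08 and 8.30. The titles call them biological replicates without saying whether they were separate cultures, so p-values measure only the spread between these libraries, which may be technical. The 8 epithelial markers summed to 8771 and 8892 CPM in C6, 6829 and 7030 CPM in C3 and 8263 and 8918 CPM in scramble, although KRT20, CDX2 and CDH17 stood below 6 CPM throughout. Mitochondrial transcripts took between 6.63% and 6.87% of counts in C6, between 6.39% and 6.49% in C3 and between 5.92% and 6.02% in scramble. Their part in the differences between groups was not tested.

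Sequences of these genes were read in promoters, in untranslated regions and in codons. The core of the antioxidant response element, searched as TGACNNNGC on both strands from 250 bases upstream to 50 bases downstream of the start, was found in GCLM and TXNRD1 among the 7 members with an entry in the RefSeq promoter table (GRCh38.p14), compared with 19.4% of the 10629 tested genes that had an entry. The 250 bases upstream of the GCLM start (chr1:93909431-93909680, minus strand) and of both TXNRD1 starts (chr12:104215529-104215778 and chr12:104286782-104287031, plus strand) are shown because they are the member promoters with a match. Capitals mark the core, read on the complementary strand where the letters begin with GC, and the last match of the first TXNRD1 window runs 1 base past the end shown.
GCLM promoter: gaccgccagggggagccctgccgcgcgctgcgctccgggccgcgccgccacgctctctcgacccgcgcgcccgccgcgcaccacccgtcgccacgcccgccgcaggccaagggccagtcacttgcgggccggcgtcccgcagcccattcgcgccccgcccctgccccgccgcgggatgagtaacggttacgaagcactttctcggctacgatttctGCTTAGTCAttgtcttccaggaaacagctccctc
TXNRD1 promoter, first start: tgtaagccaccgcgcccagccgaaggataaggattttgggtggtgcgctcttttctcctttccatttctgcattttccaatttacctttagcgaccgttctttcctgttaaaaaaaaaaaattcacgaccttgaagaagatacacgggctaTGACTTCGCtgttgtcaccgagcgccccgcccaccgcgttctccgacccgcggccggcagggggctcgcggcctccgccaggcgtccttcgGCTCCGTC
TXNRD1 promoter, second start: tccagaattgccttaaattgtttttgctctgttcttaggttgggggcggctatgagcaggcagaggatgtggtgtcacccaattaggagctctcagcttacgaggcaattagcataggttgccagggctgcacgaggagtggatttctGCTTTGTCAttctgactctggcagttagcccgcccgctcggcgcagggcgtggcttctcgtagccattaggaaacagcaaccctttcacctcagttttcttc
A match is a description of these letters and not a measured binding site. Sequence farther from the start was not searched, so a member without a match may still have an element there.

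Ferritin messages carry an iron-responsive element in the 5′ untranslated region, a hairpin to which iron regulatory proteins bind when iron is scarce and then hold back translation. The transferrin receptor TFRC carries such elements in its 3′ untranslated region, where binding protects the message, and the iron exporter SLC40A1 carries one in its 5′ untranslated region. The following sites, with the loop CAGTG in capitals, are shown because the message levels below include both arms of this system, and each has all 5 upper-stem bases paired and a C at the bulge. They come from GENCODE v29 transcripts (GRCh38) at chr11:61967573-61967602 for FTH1 (minus strand), chr19:48965335-48965364 for FTL (plus strand), chr2:189580660-189580689 for SLC40A1 (minus strand) and chr3:196050978-196051007 for 1 of the TFRC sites (minus strand).
FTH1 5′ site: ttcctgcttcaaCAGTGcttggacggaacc
FTL 5′ site: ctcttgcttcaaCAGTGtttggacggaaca
SLC40A1 5′ site: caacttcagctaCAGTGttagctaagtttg
TFRC 3′ site: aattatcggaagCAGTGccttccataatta
Control through these elements acts on translation for ferritin, which message counts do not measure.

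GPX4 and TXNRD1 are selenoproteins, in which an in-frame TGA codon is read as selenocysteine at the catalytic site. Their coding sequence around that codon, in capitals, is shown at chr19:1105376-1105435 for GPX4 and chr12:104348386-104348421 for TXNRD1, both on the plus strand and from the same transcripts. In GPX4 it is codon 73 of 198, while in TXNRD1 2 codons follow it, the stop codon included.
GPX4 codons: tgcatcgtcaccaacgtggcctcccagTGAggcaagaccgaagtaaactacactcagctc
TXNRD1 codons: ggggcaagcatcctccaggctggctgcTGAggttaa

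Against scramble, 7 of the 10 genes rose in C6 (SRXN1, HMOX1, GPX4, GSR, FTH1, FTL and TXNRD1), 6 rose in C3 (FTL, TXNRD1, GPX4, SRXN1, NQO1 and GSR), and none fell in either line by the edgeR quasi-likelihood test at an adjusted p of 0.05. At an unadjusted p of 0.05, 0 fell in either line, and in DESeq2 0 fell at the adjusted threshold and 1, in C3, at the unadjusted one. Of all genes tested, 46.7% were called in C6 and 23.8% were called higher, and in C3 24.3% were called and 12.4% were called higher. SRXN1, GPX4, GSR, FTL and TXNRD1 rose in both lines, a pattern shown by 5.44% of all genes. The members were chosen with earlier results of these data known, so the shares of all genes give scale and are no test. No member fell in both lines or was called in opposite directions in them, which 4.59% and 4.93% of all genes did. In the mean of both lines 6 of 10 rose, those 5 and HMOX1, where 32.9% of all genes were called and 16.6% called higher. Under upper-quartile scaling 5 rose and 1 fell in C6, the numbers in C3 and in the mean of both lines were as before, and the calls over all genes in the mean numbered 1642 higher and 2773 lower, where TMM gave 2212 and 2170. In 8 of the 10 genes all 4 knockdown libraries lay above both scramble libraries, as in 15.0% of all genes, the exceptions being NQO1 and FTH1. The members' median log2 fold change was 0.25 in C6, 0.29 in C3 and 0.36 in the mean of both, beside -0.01, 0.00 and -0.00 for all genes tested. In these bulk libraries, a change in the RNA per cell cannot be told apart from a change in the share of cells that express a gene.

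**Figure D1:**
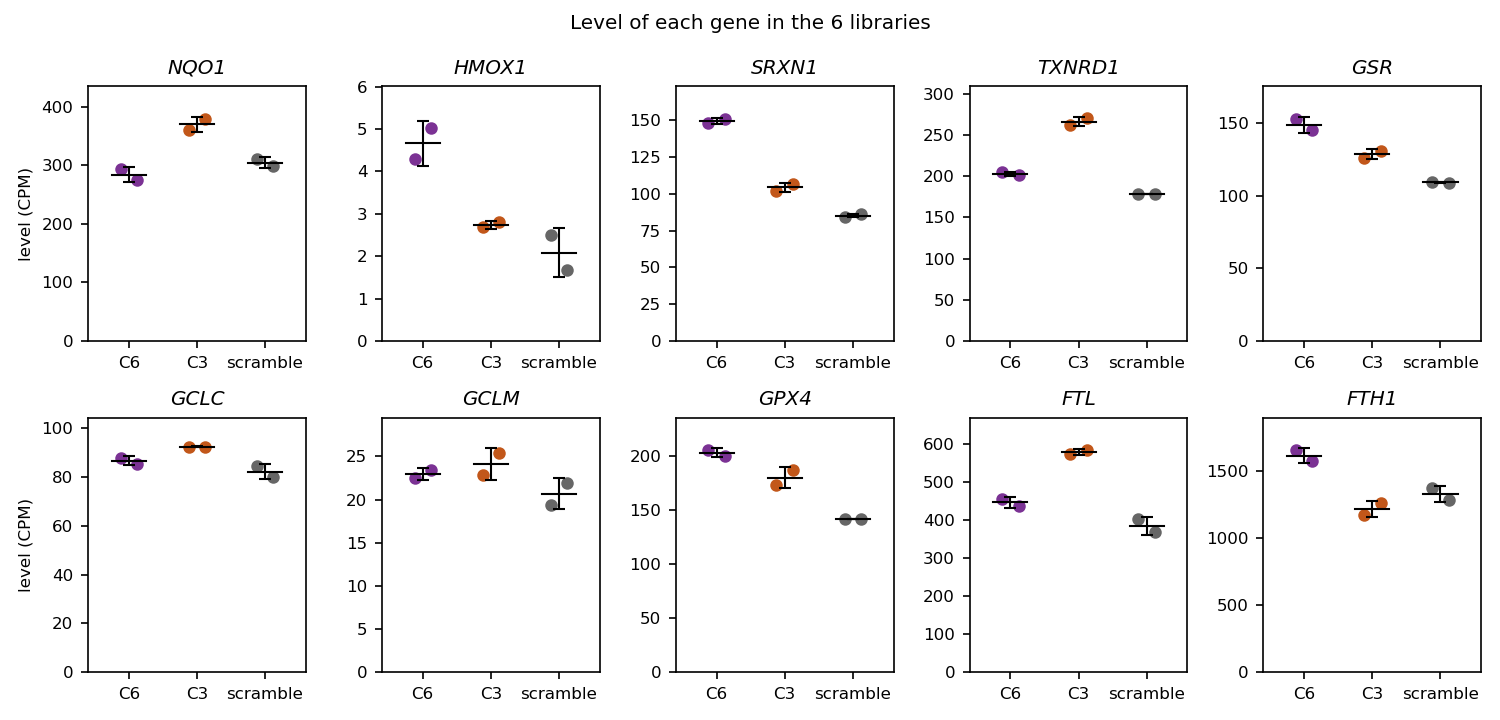
Level of each of the 10 genes in CPM (vertical axes, each starting at 0) in the C6, C3 and scramble libraries. Points are single libraries, horizontal lines the means of 2 and error bars the SD. In SRXN1, GSR and GPX4 the libraries run downward from C6 through C3 to scramble, whereas TXNRD1, FTL and NQO1 are highest in C3.

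NQO1, the quinone reductase that is the classic NRF2 reporter, rose in C3 and did not pass the test in C6. It stood at 293 and 275 CPM in C6, at 360.0 and 379 CPM in C3, and at 311 and 298 CPM in scramble. Both C3 libraries lay above scramble and both C6 libraries below it, without overlap. The log2 fold change was 0.28 ± 0.06 (SE) in C3 with an edgeR adjusted p of 0.0029, and -0.10 ± 0.06 in C6 with an adjusted p of 0.184. Without C3 replicate 2 the C3 call was lost, at 0.24 with an adjusted p of 0.0581. Under upper-quartile scaling NQO1 was called lower in C6, at -0.16 with an adjusted p of 0.0438.

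HMOX1, the haem oxygenase that releases iron and biliverdin from haem, was the scarcest of the 10 genes and had the highest fold change in C6. It was represented by 113 and 140 counts in C6, 83 and 79 counts in C3, and 67 and 45 counts in scramble, or 4.29 and 5.03 CPM, 2.68 and 2.81 CPM, and 2.49 and 1.68 CPM. Both C6 libraries were above all others, and both C3 libraries were just above the higher scramble library. The log2 fold change was 1.16 ± 0.25 in C6, a 2.24-fold rise with an edgeR adjusted p of 0.00158, and 0.40 ± 0.26 in C3 with an adjusted p of 0.303. The scramble libraries differed more for HMOX1, relative to its level, than for the other members. The rise in the mean of both lines, 0.78 with an adjusted p of 0.0164, became 0.52 with an adjusted p of 0.199 without scramble replicate 2, and had an adjusted p of 0.0817 in DESeq2.

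SRXN1, the sulfiredoxin that repairs overoxidised peroxiredoxins, had the smallest p of the 10 genes in C6. It stood at 148 and 151 CPM in C6, at 102 and 107 CPM in C3, and at 84.4 and 86.1 CPM in scramble. The groups were fully separated, in that order. The log2 fold change was 0.81 ± 0.06 in C6, a 1.75-fold rise with an edgeR adjusted p of 7.44e-08, and 0.29 ± 0.06 in C3 with an adjusted p of 0.00283. SRXN1 starts at base 646615 of chromosome 20, so near the chromosome end that its window of 51 genes may lie mostly to one side. That window had a median log2 fold change of 0.33 in C6 and 0.02 in C3, so neighbouring genes were also higher in C6. With that shift removed SRXN1 was at 0.48 in C6 with an adjusted p of 2.2e-05. Exons of SRXN1 overlap AL121758.1, a protein-coding gene on the same strand with no counts of its own. How reads of the overlap were assigned is not stated.

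TXNRD1, the selenoenzyme that keeps thioredoxin reduced, rose mainly in C3. It stood at 205 and 201 CPM in C6, at 263 and 270.3 CPM in C3, and at 179 CPM in each scramble library. Again no groups overlapped, but here C3 was on top. The log2 fold change was 0.57 ± 0.06 in C3, a 1.49-fold rise with an edgeR adjusted p of 2.86e-06, and 0.18 ± 0.06 in C6 with an adjusted p of 0.0151. The C6 call was lost under upper-quartile scaling (0.12, adjusted p 0.0988) and without scramble replicate 1, scramble replicate 2 or C6 replicate 1, with adjusted p-values of 0.0605, 0.0648 and 0.0581.

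The glutathione enzymes fell into a reductase that rose and a synthetic pair that did not pass the test. GSR, which regenerates reduced glutathione, stood at 153 and 145 CPM in C6, at 126 and 131 CPM in C3, and at 109.6 and 109 CPM in scramble. The 3 groups were separated. Its log2 fold change was 0.45 ± 0.06 in C6 with an edgeR adjusted p of 2.9e-05, and 0.24 ± 0.06 in C3 with an adjusted p of 0.011. In C6 the 51 genes around GSR on chromosome 8 had a median of 0.42, close to the value of GSR itself, while in C3 their median was -0.03. With this shift of neighbouring genes removed, GSR was at 0.03 in C6 with an adjusted p of 0.729, and the mean of both lines at 0.15 with an adjusted p of 0.053. The C3 call was lost without scramble replicate 1, scramble replicate 2 or C3 replicate 2, with adjusted p-values of 0.0578, 0.071 and 0.118.

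GCLC, the catalytic subunit of the rate-limiting enzyme of glutathione synthesis, stood at 87.8 and 85.1 CPM in C6, at 92.1 and 92.3 CPM in C3, and at 84.2 and 79.8 CPM in scramble. GCLM, its modifier subunit, stood at 22.4 and 23.4 CPM in C6, at 22.8 and 25.4 CPM in C3, and at 19.4 and 21.9 CPM in scramble. For both genes all knockdown libraries lay above both scramble libraries, by small margins. The log2 fold changes of GCLC were 0.08 ± 0.07 in C6 and 0.17 ± 0.07 in C3 with edgeR adjusted p-values of 0.364 and 0.0737, and those of GCLM were 0.15 ± 0.10 and 0.22 ± 0.10 with adjusted p-values of 0.256 and 0.136. The 95% intervals reached 0.22 in C6 and 0.31 in C3 for GCLC, and 0.37 and 0.44 for GCLM. Genes around GCLC on chromosome 6 had a median of -0.19 in C6 and -0.06 in C3, and with that shift removed GCLC passed the test in both lines, at 0.27 in C6 with an adjusted p of 0.00405 and 0.23 in C3 with an adjusted p of 0.019. GCLM counts were between 0.231 and 0.276 of GCLC counts over the 6 libraries, and the ranges of the 3 groups overlapped.

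**Figure D2:**
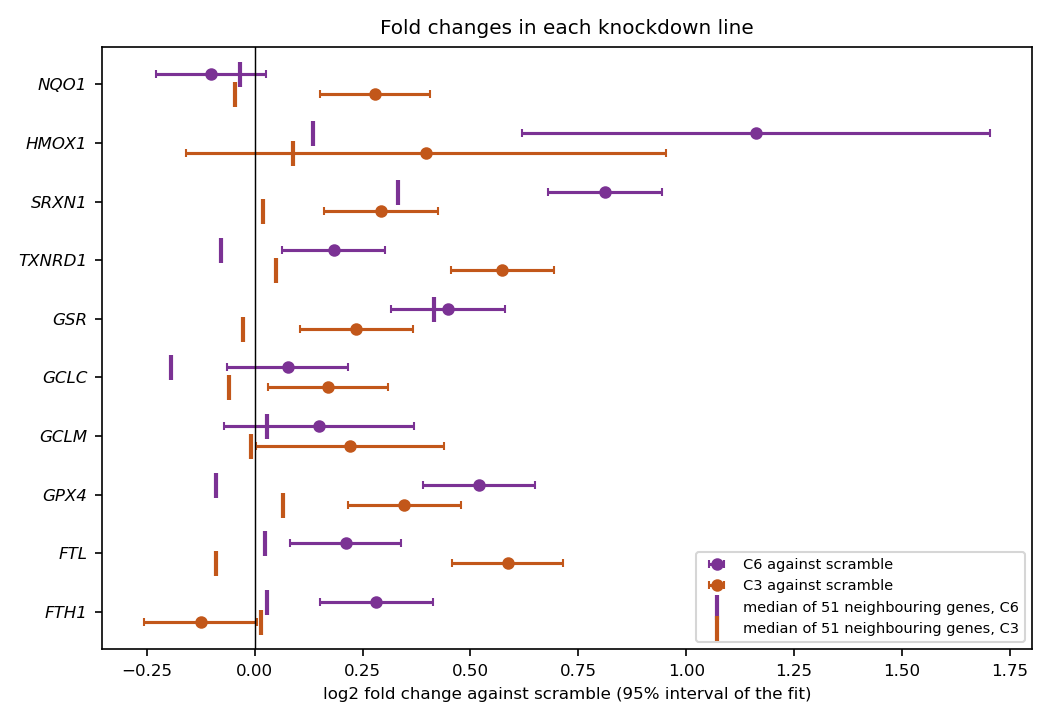
Log2 fold change against scramble (horizontal axis) of each gene in C6 (upper point of each row) and C3 (lower point), with the 95% interval of the edgeR fit, and the median of 51 neighbouring genes as vertical ticks. In C6 the tick of GSR, at 0.42, lies next to its own value of 0.45, while the interval of SRXN1 lies above its tick of 0.33.

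GPX4, which reduces lipid hydroperoxides in membranes, rose in both lines. It stood at 206 and 200.0 CPM in C6, at 173 and 187 CPM in C3, and at 142 and 141 CPM in scramble. Every knockdown library was above scramble, with C6 above C3. The log2 fold change was 0.52 ± 0.06 in C6, a 1.43-fold rise with an edgeR adjusted p of 5.99e-06, and 0.35 ± 0.06 in C3 with an adjusted p of 0.000659. Neighbouring genes had a median of -0.09 in C6 and 0.07 in C3. These calls of GPX4 against scramble were kept in every alternative run in the separate lines, the omission of each library included.

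The ferritin subunits went different ways in the lines. FTL, the light chain that promotes iron core formation, stood at 456 and 436 CPM in C6, at 573 and 584 CPM in C3, and at 402 and 369 CPM in scramble. FTH1, the heavy chain that oxidises iron, stood at 1655 and 1578 CPM in C6, at 1175 and 1262 CPM in C3, and at 1373 and 1286 CPM in scramble. FTL was thus highest in C3, whereas FTH1 was highest in C6 and lowest in C3, with no overlap of groups for either. FTL had a log2 fold change of 0.21 ± 0.06 in C6 with an edgeR adjusted p of 0.00983 and of 0.59 ± 0.06 in C3 with an adjusted p of 4.94e-06. FTH1 had one of 0.28 ± 0.06 in C6 with an adjusted p of 0.00153 and of -0.13 ± 0.06 in C3 with an adjusted p of 0.157. The C6 call of FTL was lost under upper-quartile scaling (0.15, adjusted p 0.064) and without scramble replicate 2 (0.15, adjusted p 0.113) or C6 replicate 1 (0.18, adjusted p 0.0715).

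The count ratio of FTL to FTH1 was 0.275 and 0.277 in C6, 0.488 and 0.463 in C3, and 0.293 and 0.287 in scramble. Only the C3 libraries stood well apart in this ratio. Their summed level was 2111 and 2014 CPM in C6, 1749 and 1846 CPM in C3, and 1775 and 1654 CPM in scramble, highest in C6 and overlapping between C3 and scramble. GENCODE v29 lists 16 pseudogenes named for FTL and 25 named for FTH1, none of which has a row in the count table, so reads of near-identical copies make both levels uncertain. FTH1 exons also overlap BEST1 on the opposite strand. Ferritin is also abundant in macrophages. Among 4 leukocyte markers PTPRC and CD3E were at 0 in all libraries, and the list summed to 33.2 and 40.2 CPM in C6, 10.7 and 10.8 CPM in C3, and 15.2 and 17.0 CPM in scramble, nearly all of it CD68, a lysosomal protein gene.

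**Figure D3:**
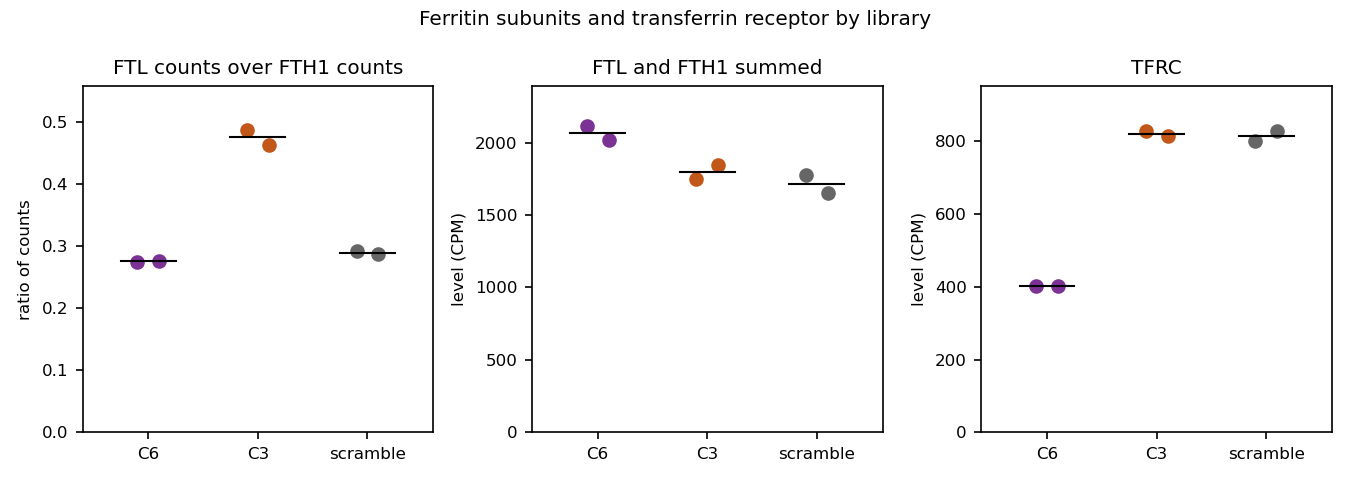
Ratio of FTL to FTH1 counts, summed level of FTL and FTH1 in CPM, and level of the transferrin receptor TFRC in CPM (vertical axes, starting at 0) in each library of C6, C3 and scramble, with points for libraries and lines for the means of 2. The ratio lies between 0.463 and 0.488 in C3 and between 0.275 and 0.293 in the other libraries, and TFRC is at 402 CPM in C6.

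The test of C6 against C3 addressed whether the lines differed from each other, and 8 of the 10 genes did, where 49.2% of all genes were called, 25.1% higher and 24.1% lower in C6. Higher in C6 were HMOX1 by 0.76 ± 0.25 (log2, edgeR adjusted p 0.0175), SRXN1 by 0.52 ± 0.06 (adjusted p 5.43e-06), FTH1 by 0.41 ± 0.06 (adjusted p 5.69e-05), GSR by 0.21 ± 0.06 (adjusted p 0.00962) and GPX4 by 0.17 ± 0.06 (adjusted p 0.0271). Lower in C6 were TXNRD1, with a difference of -0.39 ± 0.06 (adjusted p 3.47e-05), NQO1, with -0.38 ± 0.06 (adjusted p 8.56e-05), and FTL, with -0.38 ± 0.06 (adjusted p 0.000102). GCLC and GCLM did not pass, with 95% intervals of the difference from -0.23 to 0.05 and from -0.29 to 0.15. The split ran through the enzyme systems, since within the thioredoxin arm SRXN1 was higher in C6 and TXNRD1 in C3, and within ferritin FTH1 was higher in C6 and FTL in C3. The count ratio of TXNRD1 to GSR was 1.34 and 1.39 in C6, 2.08 and 2.06 in C3, and 1.63 and 1.64 in scramble. DKC1 was lower in C6 than in C3 by a log2 difference of -1.10 ± 0.06, and with 1 control the lines' hairpins, clonal history and knockdown depth cannot be told apart.

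Several of these differences between lines depended on the setting. With the shift of neighbouring genes removed, GSR turned to -0.23 with an adjusted p of 0.00615. With it removed, SRXN1 was at 0.20 with an adjusted p of 0.0132 and GPX4 at 0.33 with an adjusted p of 0.000402. GPX4 lost its call under upper-quartile scaling (0.15, adjusted p 0.0615), without C3 replicate 1 (0.12, adjusted p 0.284) and without C6 replicate 1 (0.15, adjusted p 0.108), and GSR without the same libraries (0.19, adjusted p 0.101, and 0.18, adjusted p 0.0659). HMOX1 lost it without C3 replicate 1, C3 replicate 2 or C6 replicate 2, with adjusted p-values of 0.0809, 0.0553 and 0.108, and in DESeq2 with 0.0984. The calls of SRXN1, FTH1, TXNRD1, NQO1 and FTL between the lines passed the threshold with the same sign in every alternative run, SRXN1 at less than its main size with the neighbour shift removed.

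Levels per length were compared between the genes as RPKM, from the TMM-scaled library sizes and the median length of the matched GENCODE transcripts. FTH1 was the highest in every group, at 1315 ± 45 RPKM in C6, 992 ± 50 RPKM in C3 and 1082 ± 51 RPKM in scramble (mean ± SD, n = 2 each), followed by FTL at 508 ± 16, 659 ± 9 and 439 ± 27 RPKM. HMOX1 was the lowest, at 2.56 ± 0.29 RPKM in C6, 1.51 ± 0.05 RPKM in C3 and 1.14 ± 0.32 RPKM in scramble. In scramble the order ran FTH1, FTL, NQO1, GPX4, GSR, TXNRD1, SRXN1, GCLC, GCLM and HMOX1, and no neighbours in it overlapped between libraries. The order also depends on the lengths chosen, whose uncertainty the SD does not include. GSR, with a median length of 1446 bases, ranked above TXNRD1, with 3930 bases. In CPM it stood below TXNRD1, at 109 against 179 CPM in scramble. C3 kept this order, but NQO1 at 203 ± 7 RPKM and GPX4 at 195 ± 11 RPKM overlapped. In C6 GPX4 at 219.7 ± 4.5 RPKM stood above NQO1 at 156 ± 7 RPKM, and SRXN1 at 55.5 ± 0.7 RPKM above TXNRD1 at 51.7 ± 0.7 RPKM.

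HMOX1 had the largest change of the 10 genes in the mean of both lines, and genes with a like pattern were ranked by the Euclidean distance between the pairs of log2 fold changes in C6 and C3, over 6 libraries. The closest genes of at least 5 CPM were HSPA1A, a heat-shock chaperone (1.13 in C6 and 0.40 in C3, distance 0.0359), RHEB, a GTPase that activates mTORC1 (1.14 and 0.43, distance 0.0394), MXRA7 (1.17 and 0.44, distance 0.0403) and GADD45A, a DNA damage-inducible gene (1.21 and 0.41, distance 0.0479). All these pairs share the scramble libraries. The distances are smaller than the SE of the HMOX1 changes, 0.25 in C6 and 0.26 in C3. HMOX1 itself averaged less than 5 CPM in every group, so which genes rank closest is uncertain. The neighbours of RHEB had medians of 0.59 in C6 and 0.44 in C3, and those of the other 3 genes lay between -0.19 and 0.07.

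Of 166 tested genes on 8 lists of the wider pathway, 50 rose and 33 fell in C6, and 37 rose and 25 fell in C3, with medians of 0.06 and 0.07. These are 50% called in C6 and 37.3% in C3, beside 46.7% and 24.3% of all genes. Under upper-quartile scaling the split was 40 higher and 43 lower in C6 and 31 higher and 26 lower in C3. In the mean of both lines 50 rose and 30 fell, against 30 and 38 under upper-quartile scaling, which lowers the median of all genes by 0.05. Without scramble replicate 2 the split was 33 higher and 30 lower in C6, 19 higher and 15 lower in C3, and 19 higher and 21 lower in the mean of both lines. Without C3 replicate 1 or 2 the number called in C3 was 41 or 40, without C3 replicate 2 the mean had 33 higher and 28 lower, and without scramble replicate 1 C3 had 31 higher and 16 lower. Calls over all genes in C3 numbered 945 higher and 998 lower without scramble replicate 2, beside 1654 and 1576 with all libraries.

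Among 12 regulators of NRF2, 3 rose and 1 fell in C6, and 3 rose and 2 fell in C3. Medians were 0.11 and 0.07. Called were 33.3% in C6 and 41.7% in C3, beside 46.7% and 24.3% of all genes. Under upper-quartile scaling 3 rose and 3 fell in C6, and 0 rose and 2 fell in C3, and without any 1 of the 4 libraries compared 0 rose in C3. NFE2L2, the gene of NRF2 itself, averaged 162 CPM in C6, 196 CPM in C3 and 171 CPM in scramble, with log2 fold changes of -0.08 in C6 (edgeR adjusted p 0.338) and 0.20 in C3 (adjusted p 0.0295). The C3 call was lost without any of the 4 libraries compared, for example at 0.15 with an adjusted p of 0.273 without C3 replicate 2. In C6 the neighbours of NFE2L2 had a median of -0.47, and with that shift removed it was at 0.39 with an adjusted p of 0.000134. KEAP1 averaged 62.7 CPM in C6, 74.4 CPM in C3 and 71.1 CPM in scramble, and BACH1 41.5, 36.7 and 36.7 CPM, with adjusted p-values above 0.05 in both lines. MAFK, a small MAF partner, rose in C6 to 113 CPM, against 54.3 CPM in scramble, with a log2 fold change of 1.06 (adjusted p 2.49e-08) beside a neighbour median of 0.46. MAFF, another, rose there by 0.66 (adjusted p 1.2e-05). CUL3, the ligase scaffold that works with KEAP1, fell in C6 by 0.72 on the log2 scale (adjusted p 2.68e-07) beside a neighbour median of -0.34. SQSTM1, the autophagy receptor that sequesters KEAP1, rose in C6 by 0.48 (adjusted p 1.19e-05) and fell in C3 by 0.27 (adjusted p 0.00414), where the call was lost without scramble replicate 1 or C3 replicate 1 (-0.22, adjusted p 0.0575 and 0.0839). Of the other regulators BTRC fell in C3 by 0.40 (adjusted p 0.00329, lost without scramble replicate 2 at 0.0513), GSK3B and MAFG rose in C3 by 0.23 and 0.18 (adjusted p 0.0237 and 0.0445, lost without any 1 of the 4 libraries compared), and NFE2L1 and RBX1 were at 0.11 and 0.11 in C6 and 0.03 and -0.01 in C3, without passing.

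Among 30 other NRF2 target genes, 8 rose and 7 fell in C6, and 11 rose and 4 fell in C3, with medians of -0.03 and 0.21, which is 50% called in each line beside 46.7% of all genes in C6 and 24.3% in C3. Without scramble replicate 2, 5 rose and 6 fell in C6, and 7 rose and 3 fell in C3. In C6, 5 rose without scramble replicate 1 or C6 replicate 1, and 4 in DESeq2. Between the lines 5 were higher and 15 lower in C6, with a median difference of -0.25. That is 66.7% called, beside 49.2% of all genes, of which 25.1% were higher and 24.1% lower in C6. PGD and TKT of the pentose phosphate pathway fell in C6 by 0.53 and 0.46 (edgeR adjusted p 2.77e-06 and 7.81e-06). IDH1, a cytosolic source of NADPH, fell in C6 by 0.79 (adjusted p 1.91e-07) beside a neighbour median of -0.47. NQO2, a quinone reductase related to NQO1, rose in C6 by 0.91 (adjusted p 0.000395) at about 10.6 CPM. PIR, the pirin gene, fell in C3 by 0.57 (adjusted p 0.000363).

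Among 25 genes of glutathione synthesis and use, 8 rose and 3 fell in C6, and 5 rose and 1 fell in C3, with medians of 0.09 in each, and without scramble replicate 2, 3 rose in C3. Of these 25 genes, 44% were called in C6 and 24% in C3, near the 46.7% and 24.3% of all genes. GSS, the second enzyme of glutathione synthesis, rose in C3 by 0.76 (edgeR adjusted p 1.4e-06). It stood at 151 CPM there against 88.8 CPM in scramble, and at 86.9 CPM in C6. CHAC1, which degrades glutathione, rose in C3 by 0.62 (adjusted p 2.09e-05). GSTK1, a glutathione transferase, rose by 1.04 in C6 and 0.71 in C3 (adjusted p 6.13e-08 and 9.46e-06), beside neighbour medians of 0.54 and 0.33. GSTO1, a transferase too, and GGT7 rose in C6 by 0.66 and 0.58 (adjusted p 1.34e-05 and 4.51e-05), whereas GLRX5, a mitochondrial glutaredoxin, fell there by 1.19 (adjusted p 1.41e-08). The subunits of the cystine importer, SLC7A11 and SLC3A2, belong to other lists and are not in these counts. They averaged 109 and 673 CPM in C6, 105 and 616 CPM in C3, and 95.5 and 551 CPM in scramble. Their rises in C6 were 0.19 (adjusted p 0.0317) and 0.29 (adjusted p 0.00145), and that of SLC7A11 was lost without any 1 of the 4 libraries compared and under upper-quartile scaling (0.13, adjusted p 0.131).

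Of 20 genes of the thioredoxin and peroxiredoxin system, 12 rose and 1 fell in C6, and 10 rose and none fell in C3, with medians of 0.21 and 0.24, beside 23.8% of all genes called higher in C6 and 12.4% in C3. Single libraries moved these counts: without scramble replicate 2, 5 rose in C6 and 3 in C3. In C6, 6 rose without C6 replicate 1 and 7 without C6 replicate 2, and in C3, 6 rose without C3 replicate 1 and 5 without C3 replicate 2. Fewer of all genes were called higher in these runs too. With the neighbour shift removed 7 rose in C6, where 2830 of all genes did, beside 3168 in the main run. Under upper-quartile scaling 6 rose and 2 fell in C6, and 9 rose in C3, and DESeq2 called 7 higher and 0 lower in each line. Of all 13299 genes, upper-quartile scaling called 2624 higher in C6 and 1317 in C3, and DESeq2 2535 and 1209. At an unadjusted p of 0.05 edgeR had 1 lower in C3. TXNIP, which binds and inhibits thioredoxin, averaged 72.1 CPM in C6, 26.4 CPM in C3 and 20.5 CPM in scramble, a rise in C6 of 1.81 (edgeR adjusted p 6.64e-10). SESN2, a stress-induced antioxidant and nutrient sensor gene, rose by 0.80 in C6 (adjusted p 1.35e-07). SOD1, the cytosolic superoxide dismutase, rose by 0.64 in C3 (adjusted p 4.94e-06). PRDX5 and TXNDC17, a peroxiredoxin and a thioredoxin-related protein, rose by 0.45 and 0.48 in C6 (adjusted p 0.000251 and 0.00031), and PRDX2 rose by 0.34 in C3 (adjusted p 0.00152). Thioredoxin itself, TXN, averaged 193 CPM in C6, 184 CPM in C3 and 163 CPM in scramble. It rose in C6 by 0.24 (adjusted p 0.0103), a call lost without scramble replicate 2 (0.17, adjusted p 0.136) or C6 replicate 1 (0.16, adjusted p 0.123).

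**Figure D4:**
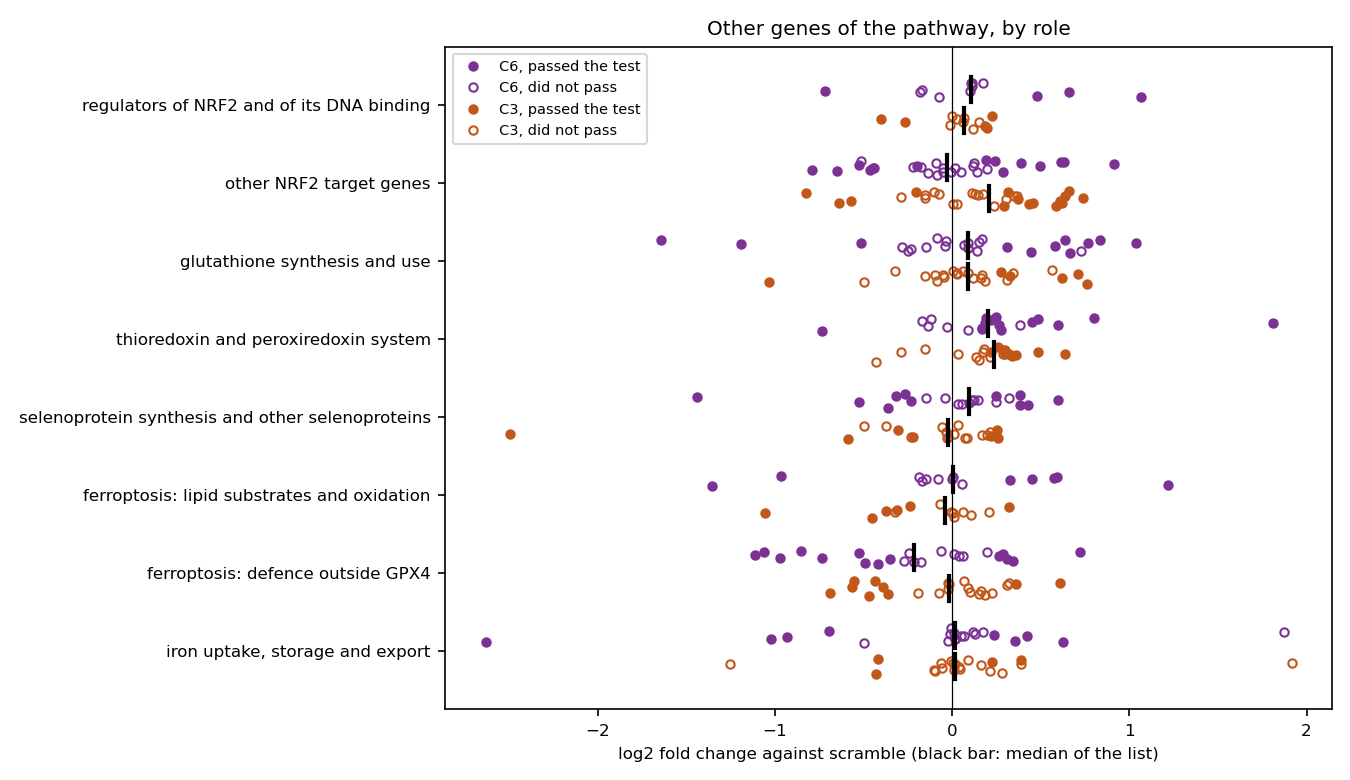
Log2 fold change against scramble (horizontal axis) of the tested genes of 8 lists, with C6 in the upper and C3 in the lower row of each list. Filled points passed the edgeR test, open ones did not, and black bars are medians. The thioredoxin and peroxiredoxin list has medians of 0.21 in C6 and 0.24 in C3, and SLC40A1, at -2.63 in C6, is the point farthest to the left.

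Among 21 other selenoproteins and factors of their synthesis, 5 rose and 6 fell in C6, and 3 rose and 4 fell in C3. Medians were 0.10 and -0.02. Called were 52.4% in C6 and 33.3% in C3, beside 46.7% and 24.3% of all genes. Under upper-quartile scaling 2 rose and 5 fell in C3, and without any 1 of the 4 libraries compared at most 1 rose and at most 3 fell there. Without C6 replicate 2, 3 fell in C6. SECISBP2, which recruits the machinery for reading TGA as selenocysteine, averaged 48.2 CPM in C6, 45.8 CPM in C3 and 53.2 CPM in scramble, with a log2 fold change of -0.22 in C3 (edgeR adjusted p 0.0413) that lost its call without any 1 of the 4 libraries compared. EEFSEC, the elongation factor for selenocysteine, was at -0.26 in C6 and -0.31 in C3 (adjusted p 0.0412 and 0.0353), calls lost in DESeq2, without scramble replicate 1 (-0.17, adjusted p 0.264, and -0.21, adjusted p 0.235), without either C3 library and, in C6, without either C6 library. LRP8, a receptor for selenium supply, fell in C3 by 0.59 (adjusted p 6.41e-05). SELENOP, a secreted selenium carrier, was scarce, at 3.99 and 2.95 CPM in C6, 0.678 and 0.285 CPM in C3 and 2.56 and 2.98 CPM in scramble, and fell in C3 by 2.50 (adjusted p 0.000206). SELENOH and SELENOW rose in C6 by 0.38 and 0.60 (adjusted p 0.000518 and 0.000154), and SELENOT was at 0.25 there (adjusted p 0.0139), lost without scramble replicate 2 or C6 replicate 1 (adjusted p 0.0737 and 0.0999).

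Of 14 genes listed for lipids of ferroptosis, 5 rose and 2 fell in C6, and 1 rose and 5 fell in C3. Called were 50% in C6 and 42.9% in C3, beside 46.7% and 24.3% of all genes. Medians were 0.00 and -0.04, and 5 rose and 5 fell in C6 under upper-quartile scaling. The list was not sorted by direction of effect. Without scramble replicate 1 or 2, 2 fell in C3. ACSL4, which activates polyunsaturated fatty acids, averaged 83.9 CPM in C6, 76.0 CPM in C3 and 94.2 CPM in scramble. It was at -0.17 in C6 (edgeR adjusted p 0.0544) and fell in C3 by 0.31 (adjusted p 0.00337, 0.0532 without scramble replicate 2). ACSL3, which activates monounsaturated fatty acids, fell in C6 by 0.96 (adjusted p 1.17e-08) beside a neighbour median of -0.30, and the desaturase FADS2 fell there by 1.36 (adjusted p 1.39e-06). LPCAT3, which places fatty acids in phospholipids, rose in C6 by 0.58 (adjusted p 0.000232), PEBP1 rose in C3 by 0.32 (adjusted p 0.000673), and CYP51A1 of the sterol pathway fell in C3 by 0.45 (adjusted p 0.00104).

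Of 23 genes linked to ferroptosis defence outside GPX4, 5 rose and 9 fell in C6, and 2 rose and 7 fell in C3. Medians were -0.22 and -0.01, and 7 fell in both lines. This list too was not sorted by direction of effect, so its counts do not measure the strength of the defence. Of all genes, 22.8% were called lower in C6, 11.9% in C3 and 4.59% in both. Without C3 replicate 2, 4 fell in C3, without scramble replicate 1, 4 rose there, and without scramble replicate 2, 3 rose in C6. Those 7 included 5 of the 6 named genes, SCD, a desaturase that makes monounsaturated fatty acids, and SQLE, IDI1, FDFT1 and DHCR7 of sterol synthesis. DHCR7, the reductase that consumes 7-dehydrocholesterol, averaged 77.1 CPM in C6, 104 CPM in C3 and 167 CPM in scramble, a fall of 1.11 on the log2 scale in C6 (edgeR adjusted p 4.15e-09) and 0.69 in C3 (adjusted p 1.57e-06). SCD fell by 0.53 in C6 and 0.55 in C3 (adjusted p 1.07e-05 and 1.9e-05), and SQLE by 0.97 in C6 and 0.36 in C3 (adjusted p 1.86e-07 and 0.00342, the second at 0.052 without scramble replicate 2 and 0.054 without C3 replicate 2). IDI1 fell by 0.85 and 0.56 and FDFT1 by 0.42 and 0.39. HSPB1, a small heat-shock protein gene, rose by 0.72 in C6 and 0.61 in C3 (adjusted p 4.33e-07 and 8.07e-06), beside neighbour medians of 0.45 and -0.06. AIFM2, the ubiquinone reductase FSP1, averaged 84.9 CPM in C6, 69.4 CPM in C3 and 70.7 CPM in scramble, and its rise of 0.27 in C6 (adjusted p 0.00713) was lost without scramble replicate 2 (0.20, adjusted p 0.0915).

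Of 21 genes of iron uptake, storage and export, 4 rose and 4 fell in C6, and 2 rose and 2 fell in C3. Called were 38.1% in C6 and 19% in C3, beside 46.7% and 24.3% of all genes. The medians of 0.02 in each turned to -0.05 in C6 and -0.02 in C3 under upper-quartile scaling. Without scramble replicate 2, 2 rose in C6 and 0 fell in C3, 1 fell in C3 without any 1 of the other 3 libraries compared, and 0 rose there without C3 replicate 1. TFRC, the transferrin receptor that imports iron, stood at 402 CPM in each C6 library, at 827 and 815 CPM in C3, and at 800.5 and 829 CPM in scramble. It fell in C6 by 1.02 on the log2 scale (edgeR adjusted p 2.46e-09), beside a neighbour median of -0.52, and was at 0.01 in C3 (adjusted p 0.913). SLC40A1, the exporter ferroportin, stood at 3.80 and 2.62 CPM in C6, at 15.2 and 14.5 CPM in C3, and at 19.0 and 20.7 CPM in scramble, a fall in C6 of 2.63 (adjusted p 5.1e-09) beside a neighbour median of -0.56. IREB2, an iron regulatory protein, fell in C6 by 0.69 (adjusted p 1.12e-06), where its neighbours had a median of -0.07, while ACO1, the other such protein, rose in C3 by 0.39 (adjusted p 0.00452, 0.052 without C3 replicate 1). FBXL5, which marks IREB2 for degradation, rose in C6 by 0.42 (adjusted p 0.00115), and BLVRA, the biliverdin reductase that acts after HMOX1, by 0.62 (adjusted p 0.0031) beside a neighbour median of 0.50, a call lost with that shift removed (0.12, adjusted p 0.555) and without scramble replicate 2 (0.43, adjusted p 0.0591). NCOA4, which delivers ferritin to lysosomes, averaged 246 CPM in C6, 242 CPM in C3 and 243 CPM in scramble, with log2 fold changes of 0.02 and -0.01.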

How the data were processed

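The authors deposited 1 table of whole-number counts per gene for the 6 libraries, with no scaling, per the file headers. RNA came from stranded poly(A) libraries read as paired ends, per the labels' protocols. The build was hg38, and HISAT2 2.1.0, Trimmomatic 0.38, DESeq2 and StringTie 2.1.3b are named in no order, per the submitters' processing notes. How overlapping genes, near-identical copies and strand were treated is stated nowhere in these sources. Besides SRXN1, GCLC has exons that overlap a gene on the same strand without counts of its own, the non-coding AL033397.1. StringTie estimates abundances, so the counts may be rounded estimates.

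Groups were taken from titles. The 6 libraries were fitted as 3 groups with the quasi-likelihood test of edgeR 4.0.16 in R 4.3.3 (TMM, filterByExpr, robust), leaving 3 residual degrees of freedom, with Benjamini-Hochberg adjustment over 13299 genes and a threshold of 0.05. The edgeR fit was also run on counts simulated from its own dispersions, which checked the recovered fold changes only. Neighbour medians run over 51 genes along the chromosome, the gene itself included, for 13238 genes with a position. Near a chromosome end the median of the last full window was used. Alternatives were RLE and upper-quartile scaling, other filters (none, or 1 CPM in 2 libraries), DESeq2 1.42.0, a replicate block, the knockdown libraries as 1 group, removal of the neighbour shift and the omission of each library. Omitting a library of a group compared also lowered the number of calls over all genes in that comparison. Named were all members, all regulators, the 6 genes per list of lowest p over the mean of both lines, and fixed partners of the members, except 1 gene that is not reported here. The members and lists were chosen with earlier results of these data known. Protein sequences were not used here.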

Additional observations from a re-analysis of the deposited data

Results flagged for a closer look

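For 8 of the 10 genes the knockdown lines differed from each other by the edgeR test of C6 against C3, in which hairpin, clonal history and knockdown depth cannot be told apart. With the neighbour shift removed GSR turned to -0.23. The log2 differences were 0.76 for HMOX1, 0.52 for SRXN1, 0.41 for FTH1, 0.21 for GSR and 0.17 for GPX4, all higher in C6, and -0.39 for TXNRD1, -0.38 for NQO1 and -0.38 for FTL, all lower in C6. Of these, NQO1 and FTH1 had fold changes of opposite sign in the lines, at -0.10 and 0.28 in C6 and 0.28 and -0.13 in C3. Of all genes tested, 49.2% were called between the lines.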

How the results depend on the processing

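Over 14 alternatives, 492 of 530 recomputed fold changes of the 10 genes kept their direction and side of the threshold, 31 lost the call, 4 gained it and 3 changed sign. Fitting the 4 knockdown libraries as 1 group left 0 of the 10 genes called by edgeR (5 at an unadjusted p of 0.05, and 5 by DESeq2 with 3 groups) and 1 pathway gene (80 of all 13299), since the difference between the lines then counts as spread. The sign changes were all in C6 against C3: GCLC at 0.0405 and GSR at -0.23 with the neighbour shift removed, and GCLM at 0.0086 without C3 replicate 2, the upper end of a range from -0.15 over the libraries left out. Leaving out 1 library gave between 5 and 8 called genes in C6 against C3, 5 and 7 in C6, 4 and 6 in C3 and 5 and 6 in the mean, the lone library of a group being taken to vary like the others. For the pathway genes it gave between 34 and 64 calls in C3 and between 40 and 72 in the mean, where scramble replicate 2 gave the lowest. Libraries with the same replicate number did not deviate together (correlations of -0.0465, 0.0644 and 0.0252), and the replicate block ended 1 call among the members, that of GPX4 in C6 against C3 (0.17, adjusted p 0.0509). At the depth of HMOX1 the interval of its fold change in C3, from -0.16 to 0.95, leaves its size undetermined.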
